A study of Drosophila melanogaster with 8 samples.

Results

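The genes described here are 9 genes through which a neurosecretory cell makes, matures and releases its peptides: dimm, amon, svr, Phm, Pal1, Pal2, 7B2, IA-2 and Cadps. They were taken by name for this role, among 17173 genes to which the deposited transcript features could be matched, and the counts of all features of a gene were added. Phm is the peptidylglycine alpha-hydroxylating monooxygenase and not the steroid hydroxylase phantom. RNA was sequenced from larval brains of Drosophila melanogaster in 8 libraries, 4 from CS and 4 from STIM KO. CS stands for Canton S, a wild-type strain, dissected at 58 to 62 h after egg laying, and STIM KO carries a null allele of Stim made by CRISPR-Cas9, dissected at 72 to 76 h. No treatment was given to either group. The mutation removes Stim from the whole animal, each library pools 15 to 20 brains, and the groups differ in age as well as in genotype, so that an effect of genotype and one of age cannot be told apart.

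Neuropeptides are made as long precursors that enter the regulated secretory pathway. In the Golgi and in the dense-core vesicle a prohormone convertase cuts the precursor at pairs of basic residues, a carboxypeptidase trims those residues, and a hydroxylase followed by a lyase turns a C-terminal glycine into an amide. The vesicle is then moved, primed and fused with the plasma membrane upon a rise of cytosolic calcium. In flies dimm encodes a basic helix-loop-helix factor of the large neurosecretory cells that drives this program and is known to activate Phm. The prohormone convertase is encoded by amon, its helper protein by 7B2, and the carboxypeptidase by svr. Amidation is carried out by the monooxygenase of Phm and the lyases of Pal1 and Pal2. IA-2 encodes a phosphatase-like protein of the dense-core vesicle membrane, and Cadps encodes the fly CAPS protein that primes the vesicle for release.

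Between 395680 and 2090717 reads per library were counted, which is 3.60% to 11.6% of all reads. The libraries fell into 2 sets in both genotypes. In replicates 1 and 2, called set A, 9.89% to 18.0% of the reads were ambiguous between features, and in replicates 3 and 4, called set B, the range was 33.5% to 34.5%. Neither the labels nor the methods name these sets. All 12 neuron markers examined had counts, elav, brp and Syt1 among them, and their summed level was 5155 to 9910 CPM (counts per 1000000 counted reads, after scaling for composition) in set A and 872 to 2253 CPM in set B. Of 5 blood cell markers 3 were at 0, among them Hml and srp, and the summed level of the list was at most 6.36 CPM. All 9 muscle markers had counts, and their summed level was 855 to 5694 CPM in set A and 538 to 1478 CPM in set B. Of 9 glia markers 7 had counts, and the summed level of the list was 827 to 1542 CPM in set A and 2250 to 2928 CPM in set B.

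How far the counts can speak for a member depends on its transcripts. The files hold 32 transcript features of the 9 genes, and 21 of these were at 0 in every library. Where a read could belong to several transcripts it may have been set aside as ambiguous, so the exon bases that belong to a single annotated transcript were counted for each gene. For amon, at 3R:26697697-26714159 on the minus strand of dm6, the annotation has 1 transcript, and all 3991 exon bases are its own. For dimm, at 2L:21331756-21342155 on the plus strand, 1887 of 3295 exon bases (57.3%) belong to 1 transcript only. The share was 37.0% of 10257 bases for IA-2, at 2L:1008378-1048053 on the minus strand.

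The other members had little sequence of this kind. It was 21.4% for Pal1 (2R:9959549-9963853, plus strand), 10.0% for Phm (2R:23985175-23988455, minus strand) and 4.86% for Pal2 (2R:23688077-23690838, plus strand). It was 4.26% for svr (X:496446-509072, plus strand, 11 transcripts), 3.09% for Cadps (4:1230837-1271759, plus strand, 5 transcripts) and 1.31% for 7B2 (3R:5376780-5377975, plus strand). For 7B2 these are 15 bases, and no position is left at which a read of 50 bases would touch a single transcript only. Among the exon bases of Pal2, 592 are shared with CG30183 on the opposite strand, and 817 of svr are shared with 2 antisense RNAs. The library kit does not mark strand, so reads of these partners cannot be told apart.

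**Figure D1:**
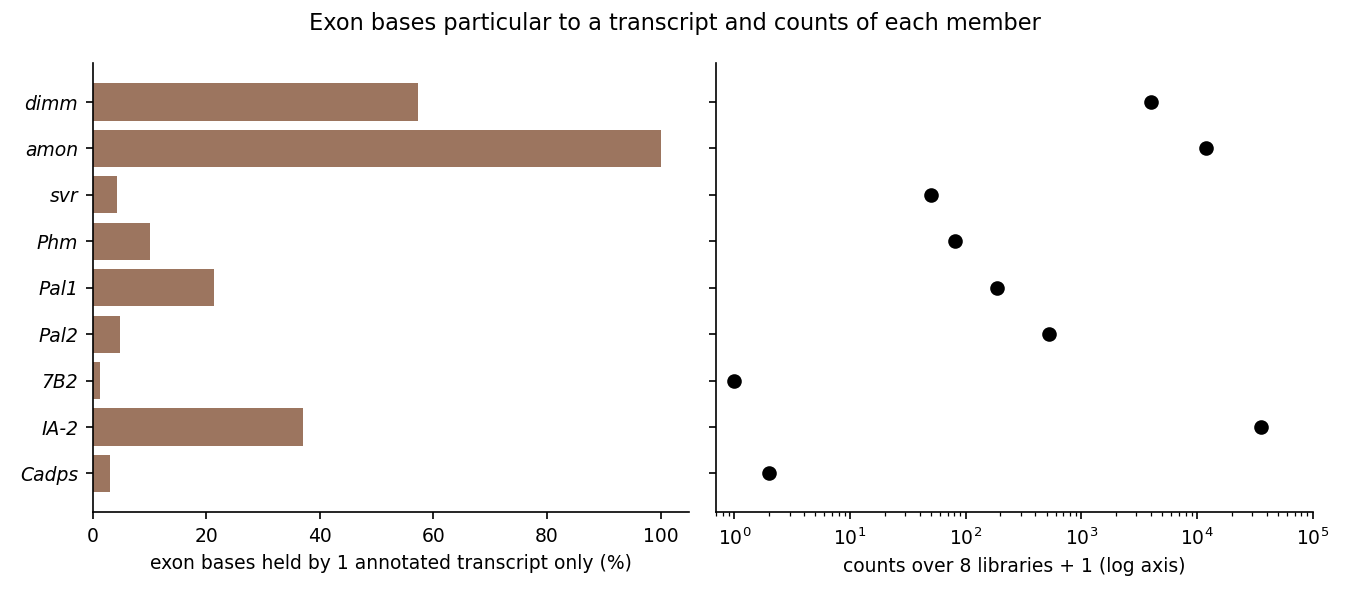
Left, share of each member's exon bases (in percent) that a single annotated transcript holds; right, its counts over the 8 libraries plus 1 on a log axis. The 3 members with the largest share, amon (100%), dimm (57.3%) and IA-2 (37.0%), also have the most counts (11988, 3992 and 35807), and 7B2 with 1.31% has none.

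The members received 52631 counts in all, of which IA-2 held 68.0%, amon 22.8%, dimm 7.58% and Pal2 1.01%. The remaining 5 genes held less than that, with 185 counts for Pal1, 80 for Phm, 49 for svr, 1 for Cadps and 0 for 7B2. For 7B2, a count of 0 allows up to 3 counts per library, or 1.24 to 9.54 CPM depending on its depth, and this limit covers counting error only. With no read position of its own the gene could have been transcribed without receiving a count. The single count of Cadps fell in CS replicate 3. Since a gene's count depends on how much of it is not shared among transcripts, levels of different members were not compared with each other. Of the 9 members, 6 passed the filter on low counts and were tested, and svr, 7B2 and Cadps did not pass it.

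The first question was whether the regulator and the enzymes differ between STIM KO and CS brains. With edgeR's quasi-likelihood test over 5539 genes, none of the 6 members tested passed an adjusted p of 0.05. The background was 0.0%, since no gene passed in this fit. An unadjusted p under 0.05 was found for 1 member, dimm, and for 360 genes (6.5%). With the library set as a term 39 genes (0.704%) and no member passed the adjusted threshold, and with the replicate number as a block 16 genes (0.289%) and no member. DESeq2 called 78 genes without the set (1.41%) and 450 with it (8.12%), limma voom called 38 (0.686%), and none of these held a member. The median log2 fold change of the members tested was -0.09 without the set term and 0.11 with it, beside 0.04 and 0.10 for all genes. In no member tested were the CPM of the 4 STIM KO libraries clear of the 4 CS libraries, where 3.27% of all genes tested had the STIM KO libraries clear above and 2.98% clear below. These p-values measure the spread between libraries of RNA that was isolated independently. Without the set term that spread includes the difference between set A and set B. In edgeR 50% of all genes tested passed an adjusted p of 0.05 for this difference. In whole brains, fewer cells of a type and less RNA per cell cannot be told apart.

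**Figure D2:**
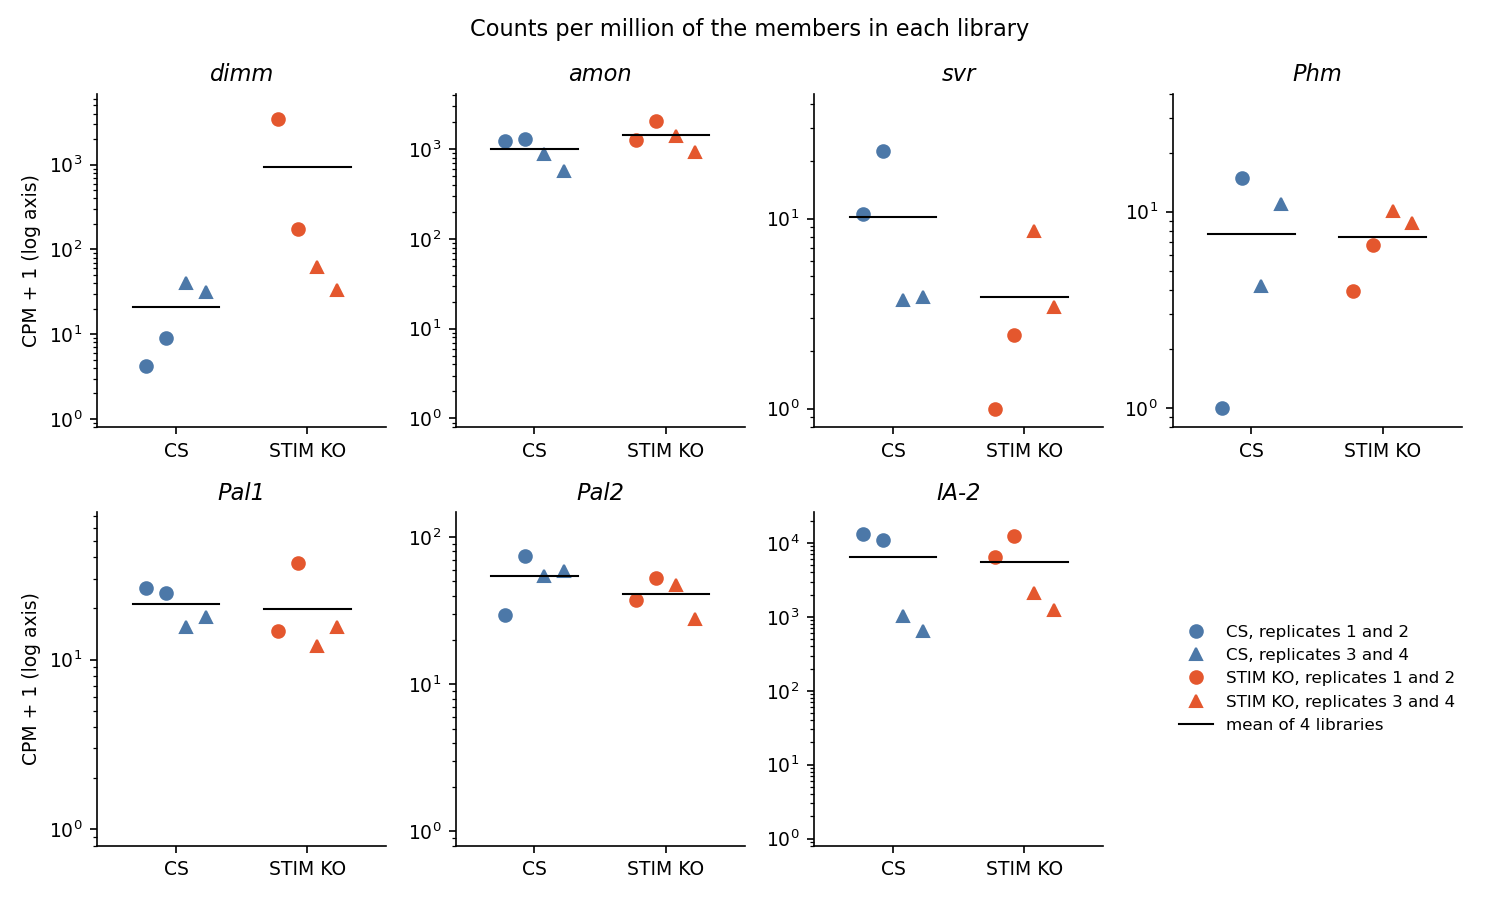
CPM plus 1 on a log axis for each member with more than 1 count, in CS (blue) and STIM KO (red). Circles are replicates 1 and 2, triangles replicates 3 and 4, and lines the means of 4 libraries. The STIM KO replicate 1 point of dimm (3462 CPM) stands far above the other libraries, and IA-2 is split by replicate number and not by genotype.

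The regulator dimm gave the largest difference among the members tested, and its size rested on 1 library. Without that library dimm still had the largest value. Its level was 3.18, 7.90, 38.9 and 30.5 CPM in CS replicates 1 to 4 and 3462, 171.5, 61.1 and 32.2 CPM in STIM KO replicates 1 to 4. These are 1, 4, 86 and 74 counts in CS and 3514, 119, 128 and 66 counts in STIM KO. STIM KO replicate 1 lay far above the next library, and STIM KO replicate 4 lay below CS replicate 3, so the groups overlap. In set A both STIM KO libraries were above both CS libraries, and in set B the genotypes overlapped.

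The mean of dimm was 20.1 ± 17.3 CPM in CS against 932 ± 1688 CPM in STIM KO (SD, n = 4 each). Without STIM KO replicate 1 the mean of STIM KO was 88.3 ± 73.5 CPM (n = 3). In log2 units STIM KO exceeded CS by 5.44 (95% interval 1.78 to 9.11, unadjusted p = 0.0080, adjusted p = 0.568, edgeR). Adding the library set to the fit gave 3.64 (-0.32 to 7.61, adjusted p = 0.325, edgeR). Leaving out STIM KO replicate 1, a choice made after the values were seen, gave 1.99 without the set term and 1.82 with it (0.19 to 3.44, adjusted p = 0.221, edgeR, where 1.03% of genes were called). An exact 2-sided permutation test on log2 CPM over 70 labelings gave p = 0.0571, where the smallest p it can give is 0.0286. This test ignores the library sets.

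The call of dimm turned in a single fit. When every gene with at least 1 count was kept and the library set was a term, its log2 fold change was 3.69 with adjusted p = 5.08e-07 in edgeR. In that fit, also added after the values were seen, 462 genes were called (3.51%), and the spread of each gene was set wholly to the trend of all genes, so that the standard error of dimm was 0.616 in place of 1.80. Over the 21 other ways of fitting, the adjusted p of dimm lay between 5.08e-07 and 0.9998, and DESeq2 without the set gave none.

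The dimm difference was also measured within each set. The difference in mean log2 CPM, STIM KO minus CS, was 6.89 in set A and 0.35 in set B (n = 2 and 2 in each). The term for this difference of differences, set B minus set A, was -7.80 with a standard error of 1.69 (unadjusted p = 0.000864, adjusted p = 0.0957, edgeR), so that it missed the adjusted threshold, which 4 genes (0.0722%) passed. The CS libraries alone were unlike in the sets, with 3.18 and 7.90 CPM in set A and 30.5 and 38.9 CPM in set B. All counts of dimm fell on 1 of its 2 features, NM_001273745.1.

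The place of STIM KO replicate 1 differed from list to list. Its summed level over 11 further regulators of peptidergic cells was 334 CPM, the lowest of the 4 STIM KO libraries, which reached 552 CPM. Over 45 neuropeptide precursors it was 7126 CPM, again the lowest of the 4. Its summed level of neuron markers, 5155 CPM, was the lowest of set A. There CS had 5508 to 9910 CPM and STIM KO replicate 2 had 7429 CPM. Set B was lower, at 872 to 2253 CPM. Over the genes of vesicle transport and release the sum of STIM KO replicate 1 was 31971 CPM, where CS had 6098 to 18293 CPM and STIM KO 6824 to 57918 CPM. The gene with the most counts in that list was alphaSnap, with 84230, followed by Syt4 with 27075. Over the peptidases of the neprilysin list it was 763 CPM, where CS had 236 to 658 CPM and STIM KO 382 to 794 CPM. In both of these lists it was above every CS library and below STIM KO replicate 2, the highest STIM KO library and also of set A. STIM KO replicate 1 was the library that stood apart above the rest of its group in 1.91% of all genes tested, against 2.87% for STIM KO replicate 2 and 0.181% to 1.14% for the other 6 libraries.

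The convertase gene amon is the member whose counts have the fewest limits, since it has 1 transcript and between 388 and 2939 counts in each library. It measured 1234, 1298, 890 and 570 CPM in CS replicates 1 to 4. In STIM KO replicates 1 to 4 it measured 1278, 2084, 1402 and 932 CPM. The highest 2 libraries were STIM KO and the lowest 2 were CS, with an overlap in between. Within set B both STIM KO libraries were above both CS libraries, and within set A STIM KO replicate 1 lay below CS replicate 2.

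The mean of amon was 998 ± 337 CPM in CS against 1424 ± 483 CPM in STIM KO (SD, n = 4 each), a ratio of 1.43. The log2 fold change was 0.51 (95% interval -0.70 to 1.72, adjusted p = 0.987, edgeR), and 0.54 with the set as a term (-0.21 to 1.28, adjusted p = 0.442, edgeR). In these 2 fits the difference was thus within the spread between libraries, and the interval still allows an increase of more than 1 on the log2 scale. With the set as a term and without STIM KO replicate 1 the value was 0.65. Its interval there was 0.03 to 1.27 (unadjusted p = 0.0424, adjusted p = 0.253, edgeR), in a fit added after the values were seen. Set A gave a difference in mean log2 CPM of 0.37 and set B one of 0.68. The exact 2-sided permutation test gave p = 0.171, and p = 0.0286 when CPM were scaled by library size only, under which the genotypes no longer overlapped. The fold change was positive in all 21 other fits, between 0.23 and 0.67, and no adjusted p among them was under 0.253. The lowest value, 0.23, was obtained without STIM KO replicate 2.

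**Figure D3:**
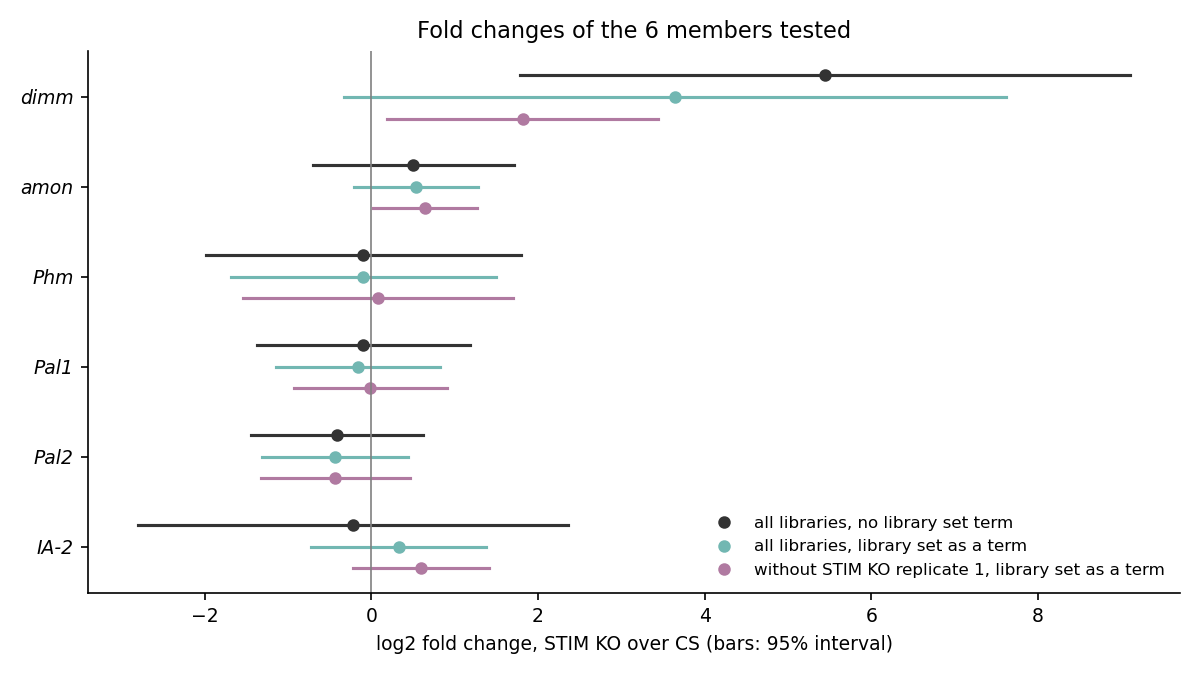
Log2 fold change of STIM KO over CS for the 6 members tested, with 95% intervals as bars, in 3 fits of edgeR. The value of dimm moves from 5.44 to 3.64 with the library set as a term and to 1.82 without STIM KO replicate 1. The value of amon stays between 0.51 and 0.65, and its interval excludes 0 only without STIM KO replicate 1 (0.03 to 1.27). The intervals of Phm, Pal1, Pal2 and IA-2 include 0 in each of the 3 fits.

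The 3 genes of amidation were at low counts, and none of these tests separated the genotypes. The lyase gene Pal2 had 28.6, 73.1, 53.3 and 57.8 CPM in CS against 36.4, 51.9, 46.3 and 26.9 CPM in STIM KO. Its means were 53.2 ± 18.5 and 40.4 ± 11.0 CPM (SD, n = 4 each), and the groups overlap widely. The log2 fold change was -0.42 (-1.45 to 0.62, adjusted p = 0.987, edgeR), and negative in all 21 other fits, between -0.66 and -0.26. Its counts, 9 to 140 per library, all lie on 1 of 3 features. Only 1 of its 3 annotated transcripts has a read position of its own, so this cannot tell which transcript was used.

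The second lyase gene, Pal1, had 25.4, 23.7, 14.5 and 16.9 CPM in CS against 13.8, 36.0, 11.0 and 14.6 CPM in STIM KO. Its means of 20.1 ± 5.27 and 18.9 ± 11.6 CPM (SD, n = 4 each) were close, with a log2 fold change of -0.09 (-1.37 to 1.18, adjusted p = 0.996, edgeR). STIM KO replicate 2 was the highest library, and the other 3 STIM KO libraries were with CS replicate 3 at the low end. In all, 154 of its 185 counts fell on NM_001299330.1 and 31 on NM_136693.3. In CS replicate 1 all 8 counts were on NM_136693.3, and in set B this transcript had 1 to 3 counts per library, 3.33% to 7.32% of the gene.

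The monooxygenase gene Phm had 0 to 24 counts per library. It was at 0 counts in CS replicate 1, the shallowest library, where 3 counts correspond to 9.54 CPM, and at 13.8, 3.16 and 9.90 CPM in the other CS libraries. In STIM KO it was at 2.96, 5.76, 9.06 and 7.81 CPM. The means were 6.72 ± 6.28 and 6.40 ± 2.67 CPM (SD, n = 4 each) and the log2 fold change was -0.10 (-1.99 to 1.80, adjusted p = 0.996, edgeR). The interval is wide enough to hold a change of more than 1 on the log2 scale in either direction, and no difference was detectable at this depth. The library with 3462 CPM of dimm had 3 counts of Phm, the fewest among the STIM KO libraries.

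The carboxypeptidase gene svr was not tested because of its low counts. In CS replicates 1 to 4 it received 3, 11, 6 and 7 counts, and in STIM KO replicates 1 to 4 it received 0, 1, 16 and 5. These correspond to 9.54, 21.7, 2.71 and 2.89 CPM in CS against to 0, 1.44, 7.63 and 2.44 CPM in STIM KO. The order of the genotypes was not the same in the sets. CS was above STIM KO in set A, with a difference of -2.99 in mean log2 CPM, and the genotypes overlapped in set B, with a difference of 0.49. Over all libraries the difference was -1.25 with p = 0.143 in an exact 2-sided permutation test. All 49 counts fell on 1 of 11 features, NM_001144669.2. Only 1 of the 11 annotated transcripts has a read position of its own, so this cannot tell which transcript was used.

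The vesicle membrane gene IA-2 was separated by library set and not by genotype. It measured 13146, 10995, 1024 and 649 CPM in CS replicates 1 to 4, and 6563, 12332, 2136 and 1257 CPM in STIM KO replicates 1 to 4. Every library of set A was above every library of set B. The mean was 10759 ± 2935 CPM in set A and 1266 ± 631 CPM in set B (SD, n = 4 each). With genotype in the same fit the log2 difference, set A minus set B, was 3.16 (2.04 to 4.29, adjusted p = 0.000657, edgeR). IA-2 was the only one of 6 members tested that passed this test, which 50% of all genes tested passed and 23.3% with the higher level in set A. The other 5 had differences between -0.38 and 2.14, with adjusted p of 0.127 or more in edgeR. The neuron markers given above were likewise higher in set A in summed level, and their part in the IA-2 difference was not tested.

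**Figure D4:**
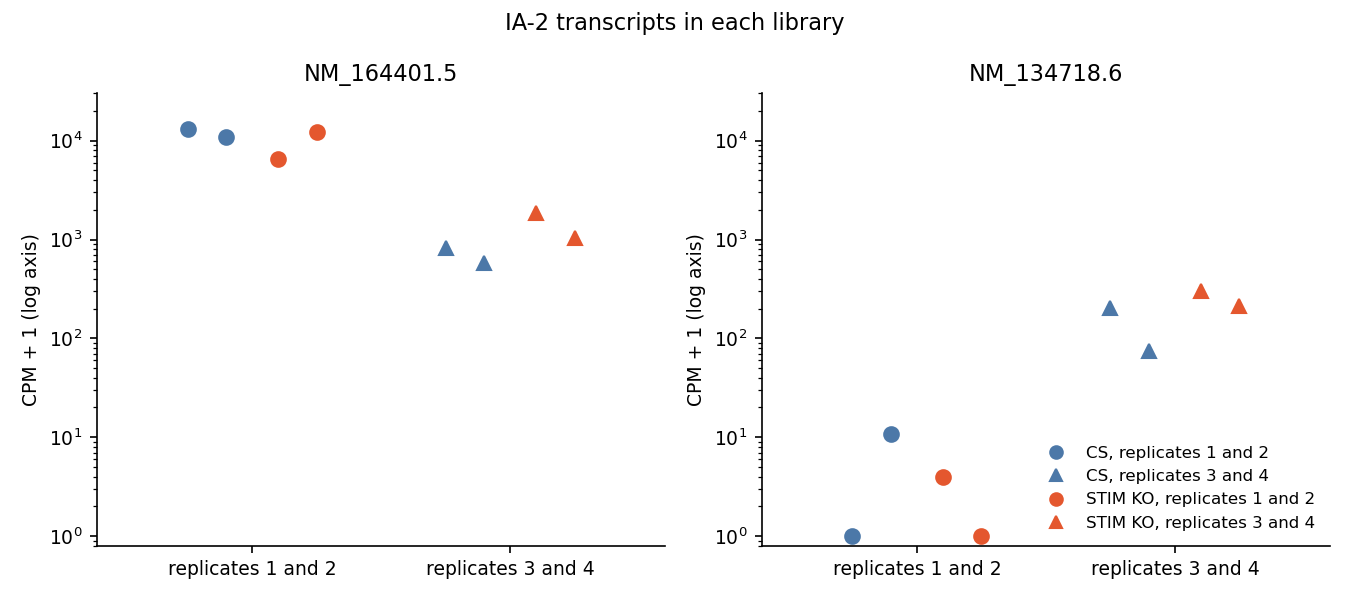
CPM plus 1 on a log axis of the 2 IA-2 transcripts with at least 10 counts, by library set, for CS (blue) and STIM KO (red). NM_164401.5 is at 6560 to 13146 CPM in replicates 1 and 2 and at 575 to 1836 CPM in replicates 3 and 4, whereas NM_134718.6 is at 0 to 9.88 CPM and at 73.4 to 300.0 CPM.

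Counts on the transcript features of IA-2 moved in opposite directions between the sets. NM_164401.5, with 95.3% of the counts, was lower in set B, and NM_134718.6, with 4.73%, was higher there. In set A NM_134718.6 had 0, 5, 3 and 0 counts, at most 0.090% of the gene. In set B it had 445, 178, 629 and 434 counts, which is 19.6% and 11.3% of the gene in CS and 14.1% and 16.9% in STIM KO. The log2 difference, set A minus set B, was 3.38 for NM_164401.5 and -5.90 for NM_134718.6, with adjusted p of 0.00050 and 0.00029 in edgeR over 5829 transcripts. NM_001272922.1 had 1 count. The annotation gives the 3 transcripts of IA-2 own stretches of 3354, 255 and 181 bases, but which deposited feature holds which stretch was not settled here. These stretches lie at a median of 1676.5, 6594 and 6557 bases from the 3' end of their transcripts. The part of read coverage along the transcript in the difference between the sets was not tested.

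Between the genotypes IA-2 had no stable direction. Its means were 6453 ± 6547 CPM in CS against 5572 ± 5070 CPM in STIM KO (SD, n = 4 each). The log2 fold change was -0.22 (-2.80 to 2.37, adjusted p = 0.996, edgeR) and turned to 0.33 with the set as a term (-0.72 to 1.37, adjusted p = 0.754, edgeR). On mean log2 CPM the difference was -0.42 within set A and 1.01 within set B. In set B both STIM KO libraries were above both CS libraries, and in set A STIM KO replicate 1 was the lowest of 4. At the transcript level no transcript passed an adjusted p of 0.05 in the genotype comparison with edgeR, and 355 of 5829 had an unadjusted p under 0.05.

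The other genes of the pathway were described by list, in the fit with the library set as a term, where the median of all genes tested was 0.10. In this fit 3098 of all 5539 genes tested were higher in STIM KO and 2441 lower, and the direction counts of the lists are to be read beside these. Among 18 genes of vesicle transport and release, which prime, dock and fuse vesicles and are also used at synapses, 14 were tested. Of these 13 were higher in STIM KO and 1 lower, with a median log2 fold change of 0.47. Other scalings and fits gave 11 to 13 higher. None passed the adjusted threshold in edgeR over the 8 libraries and 5539 genes, with or without the set. With the set 5 were higher at an unadjusted p under 0.05, against 8.94% of all genes tested. DESeq2 with the set as a term called 4 of the list, and 8.12% of all genes. The 2 edgeR fits added after the values were seen called 1 without STIM KO replicate 1 and 2 with every gene with at least 1 count, with Rala called in both (adjusted p = 0.0474 and 0.0018). They called 1.03% and 3.51% of all genes. The neuron markers, some of which are in both lists, had a median of 0.41, and the part of neuron content in these values was not tested.

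Within this list cpx, the complexin that binds assembled fusion complexes, had 124, 77.1, 147.8 and 134.5 CPM in CS against 206, 177.3, 427 and 244 CPM in STIM KO. The lowest STIM KO library was above the highest CS library, with a log2 fold change of 1.10 ± 0.31 (SE, adjusted p = 0.110, edgeR). Syt7, a synaptotagmin, had 22.3, 13.8, 31.6 and 32.6 CPM in CS against 52.2, 49.0, 68.7 and 55.7 CPM in STIM KO. It too did not overlap between the genotypes, and its log2 fold change was 1.19 ± 0.36 (SE, adjusted p = 0.130, edgeR). Of all genes tested, 3.27% had the STIM KO libraries clear above. Rala, a small GTPase that works with the exocyst, had 464 and 597 CPM in CS against 1559 and 3326 CPM in STIM KO within set A. In set B it had 20.3 and 24.3 CPM in CS against 65.3 and 36.6 CPM in STIM KO. The genotypes were apart within each set, while the sets differed far more than the genotypes, and the log2 fold change was 1.70 ± 0.40 (SE, adjusted p = 0.0838, edgeR).

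Of 13 genes of vesicle formation at the Golgi 11 were tested, 7 were higher and 4 lower, none was called, and the median was 0.11, near that of all genes. Sytbeta, a synaptotagmin family gene, had the smallest p of the list. It measured 3.18, 1.98, 31.2 and 14.9 CPM in CS against 22.7, 7.21, 66.8 and 37.1 CPM in STIM KO, with a log2 fold change of 1.55 ± 0.57 (SE, adjusted p = 0.202, edgeR). The CS values in set A were below the level of 3 counts, 9.54 and 5.93 CPM. Vps52, a subunit of tethering complexes of the trans-Golgi network and endosomes, had 1029 and 566 CPM in STIM KO replicates 1 and 2 and 138.3 to 279 CPM in the other 6 libraries. Its log2 fold change was 0.89 ± 0.50 (SE, adjusted p = 0.384, edgeR). For Rab2, a GTPase needed for dense-core vesicle maturation in worms and flies, it was 0.44 ± 0.30 (SE, adjusted p = 0.487, edgeR).

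Among 9 further enzymes of precursor processing, 8 were tested, with 3 higher and 5 lower, none called and a median of -0.35. They are the signal peptidase subunits, which remove the signal peptide, the furins and the glutaminyl cyclases, which form N-terminal pyroglutamate. The cyclases isoQC and QC had values of opposite sign, 1.58 ± 0.79 and -0.51 ± 0.31 (log2 fold change, SE). The furin gene Fur2 had 72 counts in all and a log2 fold change of 1.13 ± 0.62 (SE). The adjusted p of these 3 genes were 0.335, 0.429 and 0.376 in edgeR.

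The peptidyl monooxygenase needs copper and electrons from ascorbate. Of 8 genes listed for this supply 4 were tested, 2 higher and 2 lower, and none was called in edgeR over the 5539 genes. The largest value was that of CG1275, a gene of the cytochrome b561 family, with 3.18, 1.98, 30.7 and 26.4 CPM in CS against 49.3, 51.9, 42.9 and 49.3 CPM in STIM KO. It did not overlap between genotypes, with a log2 fold change of 1.80 ± 0.62 (SE, adjusted p = 0.180, edgeR) with the set as a term. It was called by DESeq2 with the set as a term (adjusted p = 0.0293) and by edgeR with the set and every gene with at least 1 count (adjusted p = 0.0385). For nemy, the cytochrome b561 gene named no memory, the log2 fold change was 0.84 ± 0.74, and for the copper transporter gene Ctr1A it was -0.54 ± 0.46 (SE). Their adjusted p were 0.585 and 0.580 in edgeR.

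Of 11 further transcription factor genes known from peptidergic cells 4 were tested, and all 4 were higher in STIM KO, with a median of 0.61 and none called. The smallest p was that of sqz, a zinc finger gene of peptidergic specification, with a log2 fold change of 0.77 ± 0.37 (SE, adjusted p = 0.321, edgeR). For kn, the fly COE factor, it was 0.55 ± 0.48 and for dati, a zinc finger gene, 0.67 ± 0.60 (SE), with adjusted p of 0.579 and 0.594. The other 7 genes had too few counts to be tested.

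Peptidases, among them those that break down released peptides, were listed as the neprilysin family with Ance, TppII and Dpp10, a dipeptidyl peptidase relative. Of 10 listed 5 were tested, all 5 were higher in STIM KO, none was called and the median was 0.37. For Nep3 the log2 fold change was 0.49 ± 0.34, for Dpp10 0.37 ± 0.37 and for Nep4 0.46 ± 0.57 (SE), with adjusted p of 0.491 or more in edgeR.

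The substrates of these enzymes were in the same libraries. Of 45 neuropeptide precursor genes 27 were tested, 12 higher and 15 lower with the set as a term (10 and 17 without it), and none was called in edgeR over the 5539 genes. DESeq2 called 1 without the set and 5 with it, beside 1.41% and 8.12% of all genes. With the set and every gene with at least 1 count edgeR called 6, Ilp5, Ilp2 and Lk among them, beside 3.51% of all genes. The summed level of the 45 genes was 4975 to 5669 CPM in CS against 7126 to 9567 CPM in STIM KO and did not overlap. The sum of the 11 further regulators did not overlap either (233 to 311 CPM against 334 to 552 CPM). No share over all genes was computed for such sums. Genes with many counts, such as sNPF (35083) and Lk (8872), weigh most in the precursor sum. The median log2 fold change of the precursors tested was -0.09. The 3 smallest p were those of the insulin-like peptide genes Ilp5 (-4.13 ± 0.84) and Ilp2 (-2.22 ± 0.52) and of the leucokinin gene Lk (2.59 ± 0.63, log2 fold change, SE), with adjusted p of 0.0575, 0.0838 and 0.0906 in edgeR.

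**Figure D5:**
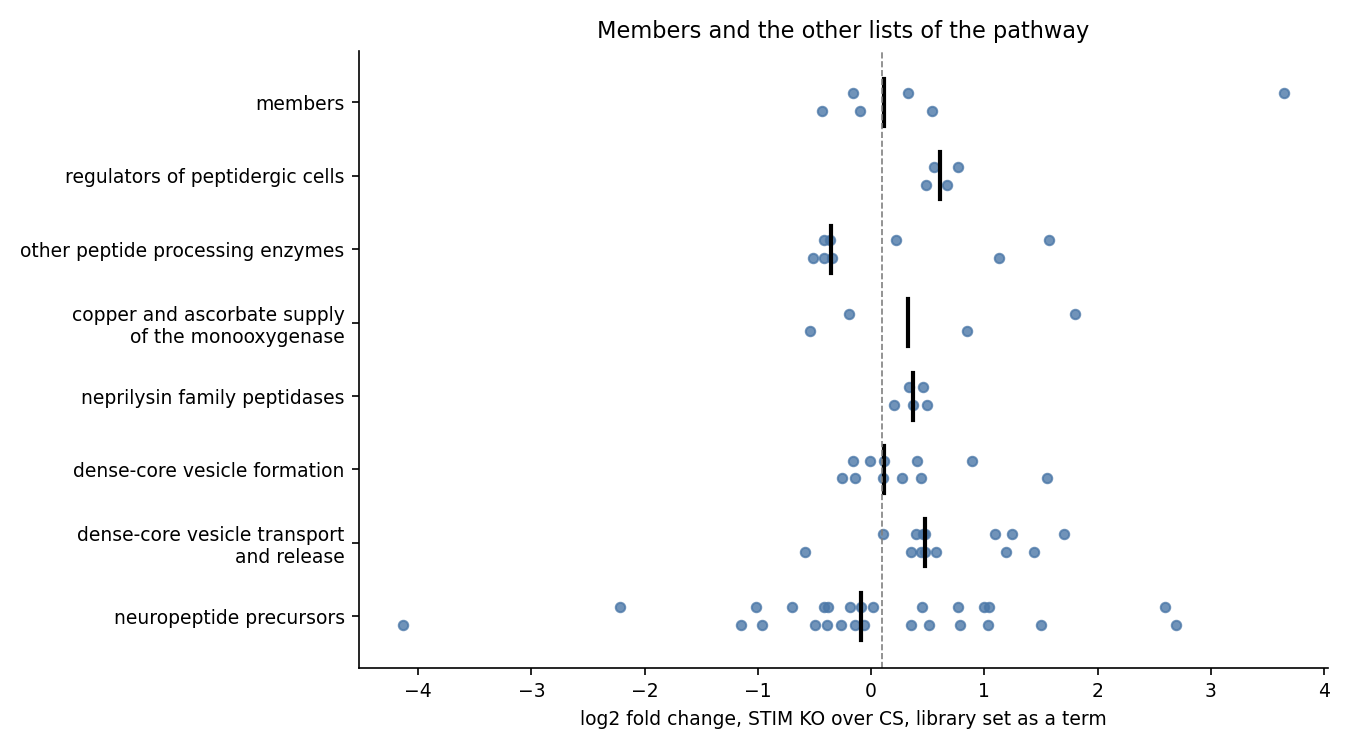
Log2 fold change of STIM KO over CS with the library set as a term, 1 point per tested gene, for the members and the other lists. Black bars are list medians and the dashed line is the median of all genes tested (0.10). The list medians lie between -0.35 and 0.61, dimm (3.64) is the rightmost point, and Ilp5 (-4.13) the leftmost.

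Markers of other tissues were measured in the same fit. The ring gland, which is attached to the brain, gave 1 called marker, sad, an ecdysone synthesis gene, with 258, 344, 934 and 874 CPM in CS against 35.5, 17.3, 24.8 and 188.0 CPM in STIM KO. Its log2 fold change was -3.28 ± 0.56 (SE, adjusted p = 0.0305, edgeR with the set as a term). Of 9 ring gland genes 6 were tested, 1 higher and 5 lower in STIM KO, with a median of -1.03. The higher one was Akh, which is also in the list of neuropeptide precursors and was not called in this fit. The summed level of the ring gland list was 1030 to 8126 CPM in CS against 881 to 3170 CPM in STIM KO. Of 7 larval cuticle genes 5 were at 0 in every library and only 1, Cpr49Ag, was tested. It was also called, at -4.26 ± 0.60 (SE, adjusted p = 0.0152, edgeR). The 7 tested genes of neuroblasts and dividing cells had a median of -1.09, and none of them was called. The part of these cells in the values of the members was not tested.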

How the data were processed

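The authors trimmed the reads with trimmomatic, aligned them to dm6 with hisat2 and deposited, per library, the htseq-count counts for 34463 RefSeq features, not normalized. The annotation and the counting mode are not given in the sources used here. The authors also deposited a DESeq2 table of group means, log2 fold changes, Wald statistics and p-values, which was not used. Features were matched to genes by exact identifier (34399) or without its version (13), and 51 were not matched. Exon overlaps come from the Ensembl annotation of dm6.

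Counts summed per gene were tested in R 4.3.3 with edgeR 4.0.16 (TMM factors, filterByExpr at min.count 10 and min.total.count 15, quasi-likelihood test on genotype), with Benjamini-Hochberg adjustment over 5539 genes. CPM carry TMM factors, and log2 CPM a prior count of 2. Alternatives were a library set term, a replicate block, DESeq2 1.42.0, limma 3.58.1 with voom quality weights, other factors, filters and dispersions, and leaving out libraries. Deviations from the genotype means correlated, for equal replicate numbers, at 0.377 to 0.776 between the genotypes, for other numbers of the same set at 0.336 to 0.716, and across sets at -0.788 to -0.385, so the numbers pair the libraries mostly by set. Single members were compared by an exact permutation test, which ignores the library sets.

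The members, the lists and the library sets were chosen with earlier results of these data known. Named are all 9 members, other listed genes called with or without the set term, and up to 3 genes per pathway list with the smallest p in the set-term fit. A few other genes are named as parts of a list, for their counts or, for Akh, for its direction. The fit was tested on simulated data. Python 3.11.15 with matplotlib 3.10.9 made the figures.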

Additional observations from a re-analysis of the deposited data

Results flagged for a closer look

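The dimm level of STIM KO replicate 1, 3462 CPM, was set off from the other 3 libraries of its group, of which the next was at 171.5 CPM. The Pal1 level of STIM KO replicate 2, 36.0 CPM, was set off in the same way from the next at 14.6 CPM. Chance sets off about 1 in 20 groups of 4 by this criterion. The difference of dimm between the genotypes was itself different in the 2 library sets, with a term of -7.80 on the log2 scale (set B minus set A, unadjusted p = 0.000864, adjusted p = 0.0957, edgeR's quasi-likelihood test). The flagged levels of dimm and Pal1 are each those of a single library. The dimm term includes STIM KO replicate 1 too, but STIM KO replicate 2 also lay above both CS libraries of set A (3.18 and 7.90 CPM). The causes of these 3 values were not tested.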

How the results depend on the processing

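The number of genes called between the genotypes depended on the fit. It was 0 in the reported fit, 39 with the library set as a term, 16 with the replicate block, 78 with DESeq2 and 450 with DESeq2 and the set, 38 with limma voom, 2 with library size only and 4 with every gene with at least 1 count. Of the fits added after seeing the data, the set term without STIM KO replicate 1 called 62 genes and the set term with every gene with at least 1 count called 462, among them 1 member, dimm. In the other fits no member was called, the replicate block included. Leaving out each library in turn called 0 genes and 0 members in each of 8 fits.

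Over 21 other fits dimm, amon and Pal2 kept their sign, with dimm between 0.91 in limma voom and 5.93 without CS replicate 3, and at 2.71 with the replicate block. IA-2 changed sign in 11, to 0.33 with the set term, 0.30 with the replicate block, 0.29 with DESeq2 and the set, 0.40 with limma voom, 0.22 with replicates 2 to 4, 0.60 with the set term and no STIM KO replicate 1, and 0.38 with the set term and every gene, and it was -0.42 within set A on mean log2 CPM. Phm changed sign in 7, to 0.20 with the replicate block, 0.69 with limma voom, 0.025 with library size only and 0.086 with the set term and no STIM KO replicate 1. Pal1 changed sign in 4, to 0.10 with replicates 2 to 4 and 0.25 for the transcript with most counts. With 1 library left out the log2 fold change ranged from 1.99 to 5.93 for dimm, 0.23 to 0.67 for amon, -0.46 to 0.31 for Phm, -0.63 to 0.10 for Pal1, -0.66 to -0.26 for Pal2 and -1.0004 to 0.32 for IA-2. The cause was not tested. Counts were few for Phm and svr, with at most 24 in a library, and for 7B2 and Cadps, with 1 in all.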
